A study of Mus musculus with 6 samples.

Results

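The clustered replication-dependent histone genes were taken as every entry of the RNA-Seq table whose gene name begins with Hist1h, Hist2h, Hist3h or Hist4h. This rule gave 67 of 21639 entries with 65 distinct symbols. Sorted by protein they were 5 H1, 18 H2A, 18 H2B, 12 H3 and 13 H4 entries and 1 entry in which the table merged Hist1h1e with Hist1h2be. In the mm9 genome 53 of them lay on chromosome 13 (the Hist1 cluster), 10 on chromosome 3 (Hist2), 3 on chromosome 11 (Hist3) and 1 on chromosome 6 (Hist4h4). Hist1h2ao and Hist2h2aa1 were each listed at 2 loci with the same values, and Hist1h2bq and Hist1h2br also had the same values as each other. Hist2h3c2-ps and Hist3h2bb-ps carry the names of pseudogenes.

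The study asked how the extended acidic patch of the histone variant H2A.Z acts in gene expression during differentiation of mouse embryonic stem cells (ESCs). RNA was sequenced from 3 ESC lines, as ESCs (D0) and as embryoid bodies after 3 days without leukemia inhibitory factor (EBs, D3). Each of these 6 conditions had 1 library. All 3 lines were labelled with the V6.5 (129SvJaexC57BL/6) strain and, in the study's methods, carried lentiviral short hairpins against the 3′ UTR of endogenous H2A.Z, with blasticidin selection. The hairpins were put into KH2 ESC lines with a doxycycline-inducible transgene of wild-type (H2A.Z WT) or mutant (H2A.Z AP3) H2A.Z, fused to YFP under a CMV promoter and sorted for YFP. In AP3, 3 acidic patch residues were exchanged for those of H2A, and the line labelled H2A.Z KD is the knock-down. The study places the knock-down in the inducible lines, and whether a transgene was induced in the KD cells sequenced is not given in the sources used here. Fibroblast feeder cells were left out only in the last passage of the ESCs.

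Because each condition had 1 library, no test or replicate error could be given, and every difference below compares 2 libraries. Levels are RPKM, reads scaled by the length of a gene and the size of its library. A difference is a log2 change of RPKM + 0.001, and an entry is called higher or lower when it passed 1.5-fold. Counts of calls use entries whose RPKM averaged 1 or more across all 6 libraries, and 52 of the 67 members and 11842 of all 21639 entries passed this filter. The share of all these entries that passed 1.5-fold in the same direction is given beside each first count of members as the background. For lists of other genes it is given beside some counts, and elsewhere the same shares hold for the same comparison.

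H2afz, which encodes H2A.Z and is the gene the hairpins target, was at 279 RPKM in WT, 343 RPKM in KD and 304 RPKM in AP3 ESCs. In EBs it had 258, 236 and 394 RPKM in the same order. The D0 library labelled KD was therefore not lower than WT in H2afz, where reads from a transgene cannot be told from those of the endogenous coding sequence, and this library and its D3 partner are named below by their label only. Of 9 ESC markers looked for, 8 were in the table, and Pou5f1, the gene of OCT4, lay between 358 and 540 RPKM in all 6 libraries. Depth estimated from the spacing of low RPKM values lay between 16.4 M and 33.0 M reads (M, 1000000 reads) per library over 9 settings of the estimate, and is approximate.

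Canonical histones are made in S phase, when new DNA has to be wrapped into nucleosomes of H2A, H2B, H3 and H4 and closed by linker histone H1. Their mRNAs are the main animal mRNAs without a poly(A) tail: they end just after a conserved stem-loop that is bound by SLBP (stem-loop binding protein) and cut by a U7-guided complex. Variants such as H2A.Z and H3.3 come from genes outside the clusters, are made through the cell cycle and carry poly(A) tails. Here RNA was selected on oligo(dT) before sequencing, so the RPKM of a clustered histone gene counts only RNA that was carried through this selection. It may also hold reads that fit other loci of like sequence.

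The 3′ stem-loops are shown because they are what sets this family of mRNAs apart from the genes around them, and because their letters set the H4 members apart from the other classes. Each was read from NCBIM37, the assembly of mm9, on the coding strand, with the 16 bases of the stem-loop in capitals and 5 bases on either side. The first line of each class is 1 of its 3 members with the highest mean level, and the other lines of a class show forms that differ from it.
Hist1h1a, chr13:23856261-23856276, plus strand: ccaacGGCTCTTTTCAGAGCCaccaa
Hist1h2ao, chr13:21902767-21902782, plus strand: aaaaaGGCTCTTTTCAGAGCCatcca
Hist2h2ac, chr3:96024341-96024356, minus strand: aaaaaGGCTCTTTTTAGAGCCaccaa
Hist1h2bj, chr13:22135507-22135522, plus strand: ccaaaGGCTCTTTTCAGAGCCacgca
Hist1h3c, chr13:23836916-23836931, minus strand: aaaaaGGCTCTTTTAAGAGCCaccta
Hist1h3g, chr13:23627758-23627773, plus strand: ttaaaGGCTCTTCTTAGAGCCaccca
Hist1h4d, chr13:23673819-23673834, plus strand: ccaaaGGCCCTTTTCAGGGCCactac
Hist1h4b, chr13:23849235-23849250, plus strand: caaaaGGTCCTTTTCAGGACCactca
Hist1h4a, chr13:23852669-23852684, minus strand: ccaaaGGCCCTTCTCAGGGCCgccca
Hist1h4i, chr13:22132835-22132850, minus strand: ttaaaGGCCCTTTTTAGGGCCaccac

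A match to the histone stem-loop was present for 64 of the 66 members that belong to 1 class. No match was found near Hist1h2an and Hist2h2be, which says only that these letters were not within 300 bases of the 2 loci. In the 61 members with an annotated stop codon the stem-loop began 21 to 58 bases after it (median 30.0). Within 100 bases of the stop codon of other annotated coding genes the motif was found in 3 of 21853 (0.0137%), and H2afx, a variant gene known to give both kinds of mRNA end, was 1 of these 3, beside Tmem194 and 1700014N06Rik. All 13 H4 members had a stem closed by GGCC or GGTC pairs, of which 8 had the form printed for Hist1h4d, and none of the other classes had these. In H1, H2A, H2B and H3 the same position held GGCTC, most often in the form printed for Hist1h1a (4 of 5 H1, 15 of 17 H2A, 13 of 17 H2B and 8 of 12 H3 matches).

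The counted interval of the table ended before the stem-loop in 36 of the 64 members, so reads on the mRNA end were outside it. Another 28 members had the stem-loop inside the interval. The hexamer AATAAA, the signal used by the usual poly(A) pathway, stood in the last 50 bases of 4 of the 11 intervals over 1000 bases (Hist1h1c, Hist1h2bc, Hist1h2bp and Hist2h2be) and in 3 of the 55 shorter ones, and in 54.6% of 22300 other coding genes. The 3 shorter ones were Hist1h1t, Hist1h2ae and Hist3h2ba. Mean levels of these 7 members ran from 0.0210 RPKM for Hist1h1t to 32.7 RPKM for Hist1h2ae.

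In RefSeq promoter windows of the GRCm38.p6 assembly (250 bases before to 50 after a start), 58 members could be matched by symbol. TATAAA on either strand was in 34 of them (58.6%) and in 13.6% of 32544 promoter windows of all genes. CCAAT was in 49 of the 58 (84.5%) against 37.4% of all windows, and the 12 H4 promoters differed from the rest with 3 of 12. ATTTGCAT, the octamer bound by OCT1 and OCT4, was in 7 of 16 H2A promoters and 6 of 15 H2B promoters, in none of the H1, H3 and H4 promoters, and in 1.75% of all windows. A match is a description of the letters and was not tested as a binding site.

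The H2A members stood apart from all other classes in level. Their means over the 6 libraries ran from 5.08 to 147 RPKM with a median of 40.9 RPKM. The medians of the other classes were 1.45 RPKM for H1, 1.33 RPKM for H2B, 1.02 RPKM for H3 and 3.35 RPKM for H4, and the highest single mean among them, 4.31 RPKM for Hist1h4d, was below the lowest H2A mean. The median of all entries that passed the filter was 10.3 RPKM. H2A entries made up 83.2% of the summed RPKM of the members in the D0 library labelled KD and 91.6% to 94.9% of it in the other 5 libraries.

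Hist1h2ao, an H2A gene of the Hist1 cluster, was the highest member, with 173, 152 and 120 RPKM in WT, KD and AP3 at D0 and 131, 146 and 157 RPKM at D3. Hist1h2ad followed with 84.0, 75.2 and 61.5 RPKM at D0 and 63.1, 66.7 and 78.3 RPKM at D3. Hist1h2ah had 79.0, 71.8 and 59.2 RPKM at D0 and 59.6, 64.5 and 74.7 RPKM at D3. In all 3 the WT ESC library was the highest and the AP3 ESC library the lowest. At the low end were Hist1h2aa, known as a testis-specific H2A, with 3.80 to 6.66 RPKM, and Hist3h2a, the H2A gene of the small cluster on chromosome 11, with 4.20 to 6.45 RPKM.

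H4 members were the highest of the other classes. Hist1h4d had 3.60, 12.003 and 3.08 RPKM in WT, KD and AP3 at D0 and 2.78, 1.65 and 2.76 RPKM at D3. Hist1h4n had 4.98, 9.21 and 2.77 RPKM at D0 and 1.48, 2.15 and 2.68 RPKM at D3. Hist1h4f had 3.42, 11.2 and 1.98 RPKM at D0 and 1.47, 1.32 and 2.95 RPKM at D3. In each of them the D0 library labelled KD was above all 5 others by more than 1.5-fold. Hist4h4, the lone H4 gene on chromosome 6, reached 1.04 RPKM in that library and lay between 0.0907 and 0.444 RPKM in the others.

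Among H2B members, Hist1h2bc was highest with 3.55, 3.87 and 1.70 RPKM in WT, KD and AP3 at D0 and 2.68, 2.40 and 3.12 RPKM at D3. Hist2h2bb had 3.01, 6.89 and 1.137 RPKM at D0 and 0.898, 0.608 and 2.11 RPKM at D3. Hist1h2bj had 1.64, 3.60 and 1.15 RPKM at D0 and 0.937, 1.33 and 1.38 RPKM at D3. Hist1h2ba, a testis-specific H2B, was at 0.343 to 1.11 RPKM. Of the 18 H2B entries, 15 were highest in the D0 library labelled KD, against 12% of all 21639 entries. The other entries were Hist3h2ba, lowest in WT ESCs (0.376 RPKM) and highest in AP3 EBs (1.62 RPKM), Hist2h2be, highest in AP3 ESCs (0.732 RPKM), and Hist3h2bb-ps, highest in WT EBs (1.21 RPKM).

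H3 members were low and alike. Hist1h3c had 1.39, 2.91 and 0.840 RPKM in WT, KD and AP3 at D0 and 0.642, 0.787 and 1.01 RPKM at D3. Hist1h3b had 1.67, 2.58 and 0.747 RPKM at D0 and 0.615, 0.780 and 1.17 RPKM at D3. Hist1h3e had 1.65, 2.34 and 0.630 RPKM at D0 and 0.457, 1.06 and 1.05 RPKM at D3. None of the 12 H3 entries reached 1 RPKM in AP3 ESCs or in WT EBs, whereas all 12 did in the D0 library labelled KD.

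The linker histone gene Hist1h1c had 2.42, 4.10 and 3.17 RPKM in WT, KD and AP3 at D0 and 1.48, 1.48 and 1.98 RPKM at D3. Hist1h1a had 2.17, 4.67 and 1.45 RPKM at D0 and 0.359, 0.288 and 0.694 RPKM at D3. Hist1h1b had 1.91, 3.73 and 0.889 RPKM at D0 and 1.16, 0.223 and 0.821 RPKM at D3. Hist1h1t, the testis-specific H1, was listed at 0 in 5 libraries and at 0.126 RPKM in AP3 EBs.

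**Figure D1:**
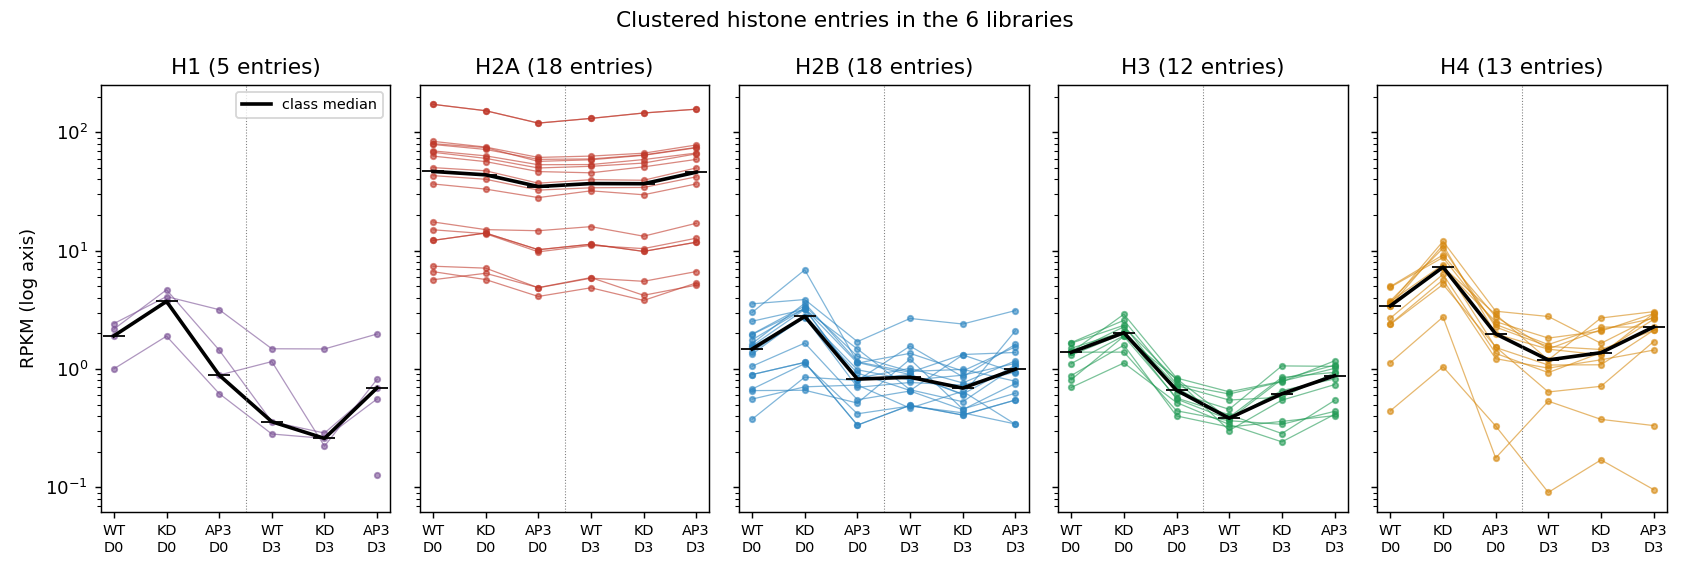
RPKM of each member (log axis) in the 6 libraries, with 1 panel per class, 1 thin line per entry and a black line for the class median. Values of 0 are not drawn. H2A entries lie between 3.80 and 173 RPKM with nearly parallel lines, and the medians of H1, H2B, H3 and H4 peak in the D0 library labelled KD.

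The first comparison set the D0 library labelled KD beside WT ESCs. Most H1, H2B and H4 members and 4 of 7 H3 members were higher in it, and no H2A member was. Of 52 members, 29 were higher and 0 lower by more than 1.5-fold, against a background of 2.94% of all entries higher and 4.02% lower. By class, 3 of 3 H1, 10 of 12 H2B, 4 of 7 H3 and 11 of 11 H4 members were higher, and 0 of 18 H2A members, and the remaining call was the merged entry. The median log2 change was 1.12 for H4, 0.97 for H1, 0.91 for H2B and 0.61 for H3, and it was -0.14 for H2A and -0.03 for all entries. Hist1h3f (1.39 RPKM in both) and Hist1h2bc (3.55 and 3.87 RPKM) were near their WT levels.

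Because a filter on the mean can favour entries that are high in 1 library, all 67 members were also counted without it. Of the 49 members that were not H2A, 48 had a higher value, of any size, in the KD-labelled ESC library than in WT and 1 (Hist1h1t) was at 0 in both, and 37.2% of all 21639 entries were higher at any size. Hist1h4d stood out with 3.33-fold, followed by Hist1h4f with 3.26-fold and Hist1h4a with 2.79-fold. Among H2A members, Hist2h2aa1 (log2 change 0.21) and Hist3h2a (0.18) were above WT, and Hist1h2ac, Hist1h2aa and Hist1h2ao had the most negative values (-0.22, -0.22 and -0.18). The KD-labelled library was the highest of all 6 for 33 of the 34 filtered members that were not H2A, for 3 of 18 H2A entries (both Hist2h2aa1 loci and Hist3h2a), and for 11.8% of all entries. Without the filter it was the highest for 45 of 49 members that were not H2A, against the same 12%.

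Reads behind these values were few. On entries of at most 1000 bases, the 13 H4 members held about 235 reads in WT ESCs and 682 in the KD-labelled library at the lowest depth estimates, for a ratio of 2.31 after scaling for depth with an exact 95% interval of 1.99 to 2.69. The H3 ratio was 1.65 (1.29 to 2.11), the H2B ratio 1.84 (1.51 to 2.24) and the H1 ratio 2.04 (1.45 to 2.91). The H2A ratio was 0.908 (0.876 to 0.941). For single genes the interval was wide, as for Hist1h4d (2.02 to 6.05). These intervals cover counting error only, and since a read that fits several members may count in each, they are too narrow to that extent. The reads were worked out from RPKM, the full length of the interval and the depth, and were rounded. If the RPKM values were made with a shorter length, the reads are fewer and the intervals wider.

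The second comparison set AP3 ESCs beside WT ESCs at D0, which asks what the acidic patch exchange does to these genes in ESCs. Here the median of each of the 5 classes was lower in AP3. Of 52 members, 30 were lower and 1 higher by more than 1.5-fold, against 5.49% and 6.80% of all entries. The lower ones were 2 of 3 H1, 3 of 18 H2A, 9 of 12 H2B, 7 of 7 H3 and 8 of 11 H4 members and the merged entry, and the higher one was Hist3h2ba (0.376 and 0.8004 RPKM). The median log2 change was -1.05 for H3, -0.79 for H4, -0.71 for H2B, -0.59 for H1 and -0.44 for H2A, against 0.00 for all entries.

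The H2A members that passed 1.5-fold downward in AP3 ESCs were Hist1h2aa (6.66 and 4.11 RPKM), Hist2h2ac (15.0 and 9.78 RPKM) and Hist2h2ab (7.40 and 4.86 RPKM). Without the filter, 63 of 67 members had a lower value, of any size, in AP3 than in WT ESCs, against 42.9% of all 21639 entries. The counting ratio was 0.594 (0.494 to 0.713) for H4, 0.518 (0.386 to 0.695) for H3 and 0.729 (0.704 to 0.754) for H2A. Among the 3 D0 libraries, the KD-labelled one was highest and AP3 lowest for 32 of 34 members that were not H2A and for 3 of 18 H2A entries, and for 20% of all entries. Without the filter this order held for 45 of 49 members that were not H2A and for 15.8% of all 21639 entries.

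**Figure D2:**
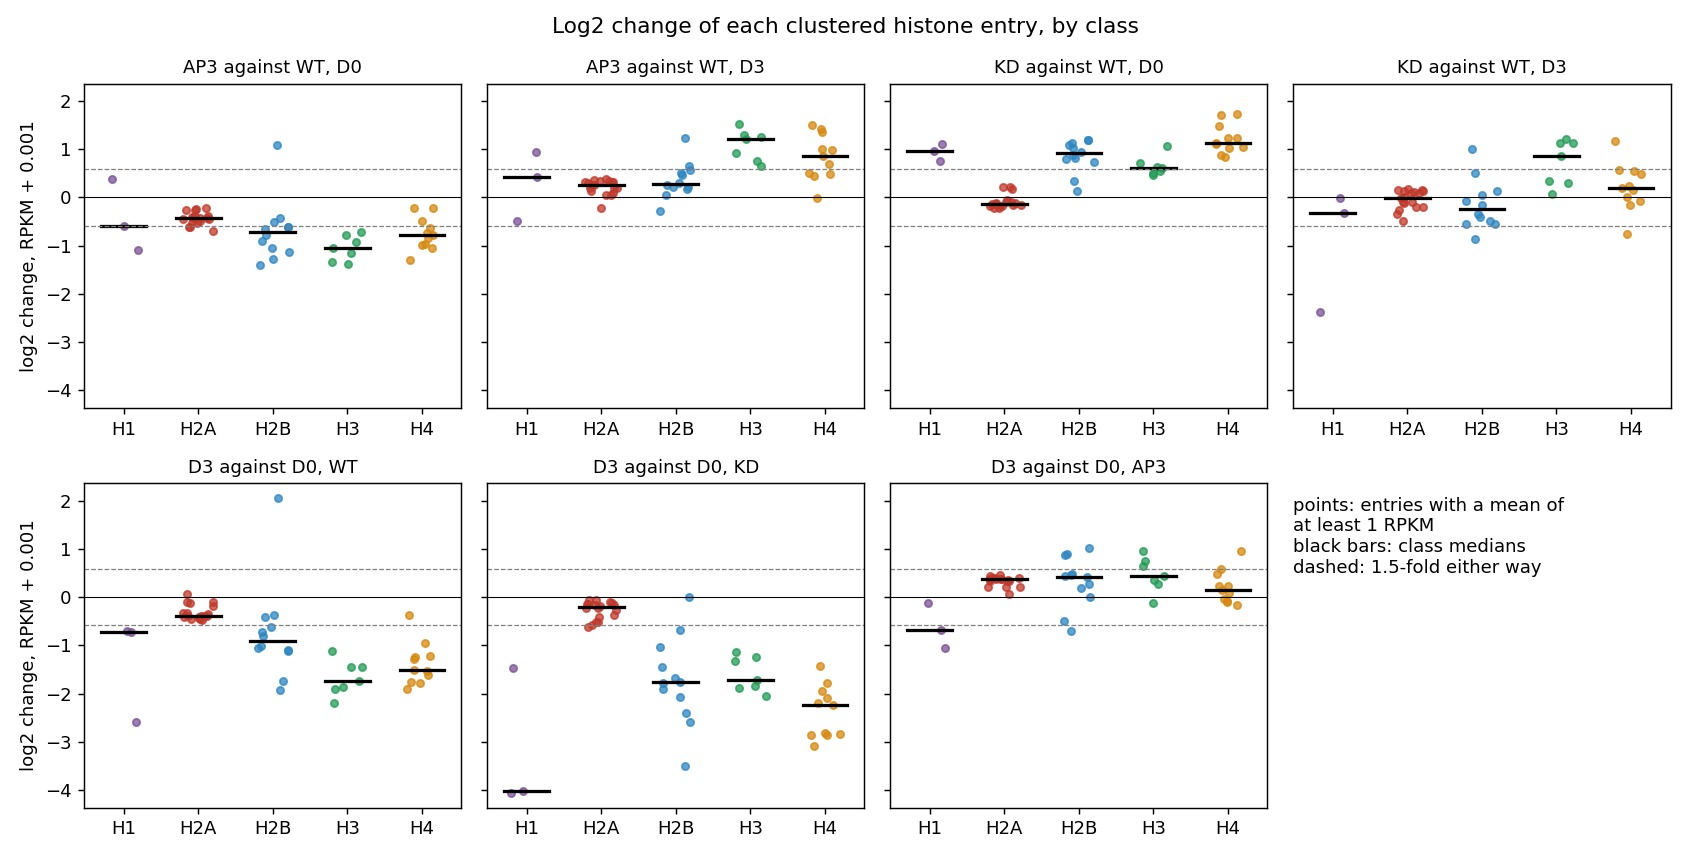
Log2 change of each member with a mean of at least 1 RPKM in the 7 comparisons, by class, with black bars for class medians and dashed lines at 1.5-fold. H2A points stay close together around their median in each comparison, while the H4 median is 1.12 in KD against WT at D0 and -2.24 in the KD-labelled D3 against D0.

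At D3 the order of the lines was another. AP3 EBs were higher than WT EBs for 18 of 52 members and lower for 0, against 4.05% and 5.21% of all entries. These 18 were 7 of 7 H3, 7 of 11 H4, 2 of 12 H2B and 1 of 3 H1 members and the merged entry, with median log2 changes of 1.204 for H3 and 0.86 for H4 (0.85 and 0.69 over all their entries without the filter). H2A had a median of 0.26 and no call. Without the filter, 21 of 67 members were higher and 2 lower by more than 1.5-fold. By class, 8 of 12 H3 and 7 of 13 H4 entries were then higher, and 1 H4 entry was lower. A higher value in AP3 than in WT EBs, of any size, was seen for 48 of 52 members and for 49.4% of all entries, and the H2A member that went the other way was Hist3h2a (5.93 and 5.12 RPKM).

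Hist1h4h, an H4 gene, had 0.933 RPKM in WT EBs and 2.63 RPKM in AP3 EBs, with a counting interval of the ratio of 1.29 to 7.42. Hist1h3d had 0.375 and 1.08 RPKM on about 3 and 9 reads, with an interval of 0.646 to 14.9 that covers no difference. With about 106 H4 reads in WT EBs and 207 in AP3 EBs the ratio was 1.69 (1.33 to 2.15), and for H3, with 38 and 85 reads, 1.93 (1.303 to 2.91). Among the H2A members with the most positive values, Hist1h2ai had 45.5 and 59.1 RPKM, Hist1h2ag 51.7 and 65.9 RPKM, and Hist1h2af 58.7 and 74.1 RPKM.

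The D3 library labelled KD was set beside WT EBs in the same way. Of 52 members, 7 were higher and 3 lower by more than 1.5-fold, against 3.23% and 4.53% of all entries, and the median log2 change was 0.07. By class it was 0.85 for H3, 0.20 for H4, -0.00 for H2A, -0.25 for H2B and -0.32 for H1. Without the filter it was 0.32 over all 12 H3 entries and -0.12 over all 5 H1 entries. The higher ones included 4 of 7 H3 members, with Hist1h3e at 0.457 and 1.06 RPKM and Hist1h3a at 0.391 and 0.849 RPKM, on 3 and 8 reads and on 4 and 8 reads. The summed H3 ratio of 1.49 had an interval of 0.975 to 2.31, which covers no difference. Hist1h1b was lower, at 1.16 and 0.223 RPKM. For H4 the ratio of 1.15 had an interval of 0.884 to 1.51, and the H2B ratio of 0.833 one of 0.618 to 1.12, which both cover no difference. The H1 ratio was 0.361 (0.128 to 0.896), on 19 reads in WT and 7 in the KD-labelled library over 3 short entries. Hist1h1b held 14 and 3 of these reads. Summed over all 5 H1 entries, RPKM was 3.28 in WT and 2.25 in the KD-labelled library, a ratio of 0.685. In H2A, Hist1h2ai, Hist1h2ao and Hist1h2an had the most positive log2 changes (0.17, 0.15 and 0.14) and Hist3h2a, Hist1h2aa and Hist1h2ac the most negative (-0.50, -0.35 and -0.27).

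The last 3 comparisons followed each line from D0 to D3. In WT, 30 of 52 members were lower in EBs and 1 was higher, against 9.53% and 11.4% of all entries. The lower ones were 3 of 3 H1, 9 of 12 H2B, 7 of 7 H3 and 10 of 11 H4 members and the merged entry, and the higher one was Hist3h2ba (0.376 and 1.56 RPKM). Median log2 changes were -1.74 for H3, -1.51 for H4, -0.91 for H2B and -0.72 for H1. H2A members had a median of -0.39 with no call, and Hist1h2ai (63.0 and 45.5 RPKM), Hist1h2af (80.3 and 58.7 RPKM) and Hist1h2ad were among the most negative. Hist3h2a was the H2A member with a value above 0 (log2 change 0.06).

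In the line labelled KD, 35 of 52 members were lower at D3 and 0 higher, against 8.86% and 11.5% of all entries. Every filtered H1, H3 and H4 member (3, 7 and 11) and 11 of 12 H2B members was among them, though several passed the filter through their level in the KD-labelled ESC library. Without the filter, 45 of the 49 members that were not H2A were lower by more than 1.5-fold, and 65 of 67 members were lower at any size, against 40.5% of all 21639 entries. Median log2 changes were -4.02 for the 3 H1 members, -2.24 for H4, -1.77 for H2B and -1.72 for H3. Over all entries of a class without the filter they were -2.87 for the 5 H1 entries, -2.61 for H4, -1.57 for H2B and -1.86 for H3. Hist1h1a went from 4.67 to 0.288 RPKM and Hist1h4f from 11.2 to 1.32 RPKM. Among H2A members, Hist3h2a (6.45 and 4.20 RPKM) and Hist1h2aa (5.70 and 3.80 RPKM) passed 1.5-fold, Hist2h2aa1 followed (14.1 and 9.87 RPKM), and the median was -0.20.

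In AP3 the direction was not shared. Of 52 members, 7 were higher at D3 and 3 lower, against 10.8% and 11.5% of all entries, so calls were not frequent among the members. The 3 lower ones were Hist1h1a and Hist1h1c among the H1 members and Hist1h2bg among H2B. H2A members were above D0 in all 18 entries, which share much of their sequence, against 42.8% of all 21639 entries at any size. They had a median log2 change of 0.38 and the most positive values for Hist1h2ak (37.2 and 50.1 RPKM), Hist2h2ab, Hist1h2ag and Hist1h2ao, and none passed 1.5-fold. For H4 the ratio was 1.15 (0.949 to 1.39), and for H2A it was 1.29 (1.25 to 1.34).

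Counted over the lines, 40 of 52 members were lower at D3 in WT and in the KD-labelled line and higher in AP3, and 9.75% of all entries had this order. Another 10 of 52 were lower at D3 in all 3 lines, against 20.4% of all entries, and none of these was H2A. Without the filter the first order held for 45 of 67 members (28 of the 49 that were not H2A) and 8.31% of all 21639 entries, and the second for 18 of 67 members and 17.5% of all entries. WT ESCs were the highest library for 14 of 18 H2A entries, for none of the 34 other filtered members, and for 13.5% of all entries. The comparisons share libraries with each other, so these counts are not separate pieces of evidence.

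How alike the members' sequences are bears on how a read can be placed. Each locus of up to 5000 bases was cut into all its windows of 36 bases, and the genome was searched for every exact copy on either strand. In H2A a median of 83.2% of windows also occurred in another member's interval (range 3.02% to 100%). The median was 60.1% in H2B, 77.6% in H3, 63.2% in H4 and 1.88% in H1, and no window was shared between classes.

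H2A differed from the other classes in what it shared outside the clusters. All 18 H2A entries had windows in common with H2afx, with a median of 21.8% of an entry's windows and a maximum of 31.2% for Hist1h2ah, and no H1, H2B, H3 or H4 entry had any. H2afx, the gene of the variant H2A.X and 1 of the 3 other genes with a stem-loop above, had 120, 146 and 113 RPKM in WT, KD and AP3 ESCs, and 111, 90.2 and 131 RPKM in the EBs of these lines. H2A entries also shared up to 9.38% of windows (median 6.89%) with H2afj, a polyadenylated variant, which had 43.9 to 75.7 RPKM. Windows were also shared with the H2A loci Hist1h2al (median 16.9%) and Hist1h2aj (median 48.8%), which were not analysed here.

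Across the 16 H2A entries with distinct values, the mean level was higher where a larger share of an entry's windows was in common with H2afx (Spearman's rho 0.83, Pearson's r 0.86 with log2 RPKM). The share is divided by the length of the locus and RPKM by the length of the gene, so they are tied in part by length. Hist3h2a and Hist1h2aa shared 1.02% and 5.07% of their windows with it and had the lowest means, 5.38 and 5.08 RPKM. Hist1h2ad shared 30.7% of a 393-base locus and had a mean of 71.4 RPKM. The order was not strict, since Hist1h2ac shared 4.48% with a mean of 15.6 RPKM and the highest member, Hist1h2ao, shared 23.0%. The locus of Hist1h2ac has 2493 bases and that of Hist1h2ao 514. These shares therefore differ with length, and the number of windows in common with H2afx need not differ. The entries overlap in sequence and their reads may have been placed at several loci, so these points are not independent, and the part of shared reads in the H2A levels was not tested. The rank correlation of the level with windows shared with other members was 0.76 over the same 16 H2A entries, 0.26 over 16 H2B, 0.20 over 12 H3 and 0.53 over 13 H4 entries. Pearson's r with log2 RPKM was 0.78, 0.21, 0.25 and 0.81 in the same order, so H4 was as high as H2A by this measure. Hist4h4 (none shared, 0.363 RPKM) and Hist2h4 (9.58% shared, 0.884 RPKM) lay below all other H4 entries in both share and level. The value without them was not computed.

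**Figure D3:**
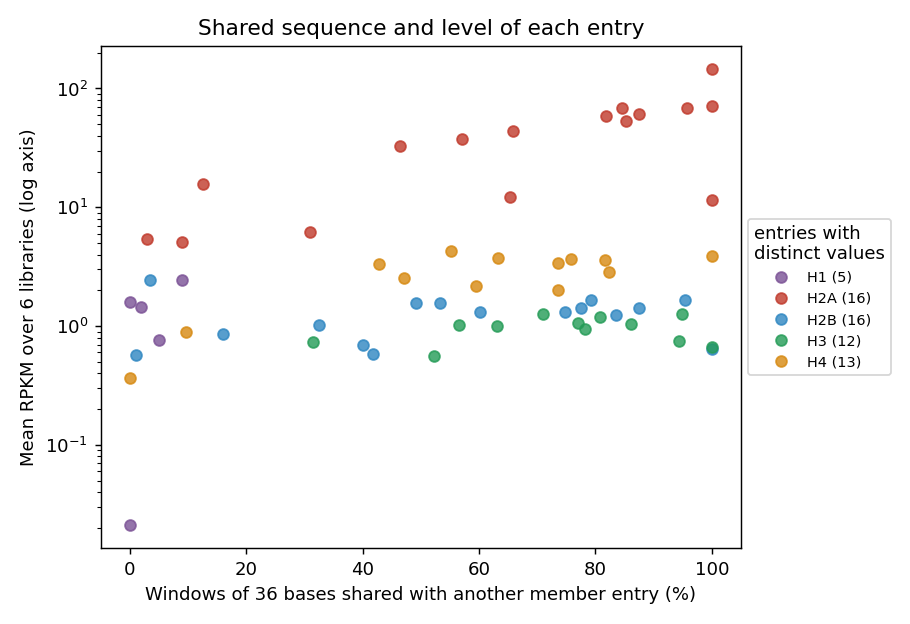
Mean RPKM over the 6 libraries (log axis) against the percent of 36-base windows shared with another member, 1 point per entry with distinct values, coloured by class. H2A entries lie above 5 RPKM and are higher to the right, whereas the H2B entries drawn stay between 0.576 and 2.44 RPKM and H3 entries between 0.557 and 1.26 RPKM.

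Members that shared under 15% of their windows with another member were compared in the KD-labelled ESC library and WT ESCs. The share is over the whole interval, so a long locus can have a low share and still hold many shared windows. Such loci were Hist1h2ac (12.7% of 2458 windows), Hist1h1c (8.92% of 1525) and Hist1h1d (5.03% of 2942). Hist1h1a, which shared none, was 2.15-fold above WT, with a counting interval of 1.35 to 3.44, and Hist2h2bb, with 3.49% shared, was 2.29-fold above WT (1.44 to 3.86). Hist1h1b, Hist1h1c, Hist1h1d and Hist2h4 also passed 1.5-fold, with log2 changes of 0.97, 0.76, 0.92 and 1.28. Hist4h4, with none shared, was 2.35-fold above WT, but on about 7 and 2 reads, and its interval of 0.531 to 27.5 covers no difference. Hist2h2be, Hist3h2a, Hist1h2aa and Hist1h2ac did not pass, with log2 changes of 0.34, 0.18, -0.22 and -0.22, and Hist1h1t was listed at 0 in both. The part of shared reads in these differences was not tested.

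Other RNAs that lack a poly(A) tail were looked at beside the members, since the libraries were made from oligo(dT)-selected RNA. Rmrp, the RNA of RNase MRP, had 18.7, 36.9 and 14.3 RPKM in WT, KD and AP3 at D0 and 8.55, 9.52 and 10.4 RPKM at D3. Rpph1, the RNA of RNase P, had 15.8, 62.2 and 20.4 RPKM at D0 and 15.1, 6.84 and 12.04 RPKM at D3. Both were highest in the KD-labelled ESC library, as were H1, H2B, H3 and H4 members. The summed RPKM of all 118 entries of the list, most of them small nucleolar RNAs, was 728, 910 and 646 at D0 and 633, 639 and 788 at D3. Of these entries 22 were listed at 0 in the KD-labelled ESC library and 40 to 49 in the other libraries. These are counts of entries and not of separate RNAs, since the symbol Snord116l2 was listed many times. All its entries had at most 0.146 RPKM in the KD-labelled ESC library and 0 in every other library. They therefore make up a large part of the gap in these counts.

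Of the 76 listed entries that passed the filter, 35 were higher and 18 lower in the KD-labelled ESC library than in WT (2.94% and 4.02% of all entries). In AP3 ESCs 17 were higher and 24 lower (6.80% and 5.49%). From D0 to D3, 34 were lower and 22 higher in WT (9.53% and 11.4%). Over the same days 36 were lower and 17 higher in the KD-labelled line (8.86% and 11.5%), and 22 lower and 30 higher in AP3 (11.5% and 10.8%). Short RNAs such as these vary by counting alone and some overlap host genes. Whether a different carry-through of RNA without poly(A) tails in the libraries had a part in the histone levels was not tested.

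Of the histone variant genes looked at, at most 1 passed 1.5-fold in each comparison. The list held 11 genes known for polyadenylated mRNA, of which H2afx can also end at its stem-loop. Of these, 1 (H2afy2) was higher and 0 lower by more than 1.5-fold in the KD-labelled ESC library, against 2.94% and 4.02% of all entries. In AP3 ESCs 1 (H2afj) was higher and 0 lower, against 6.80% and 5.49%. From D0 to D3, 1 (H2afy2) was higher and 0 lower in WT, against 11.4% and 9.53%. Over the same days 1 was lower in the KD-labelled line (H2afx, log2 change -0.69) and 1 higher in AP3 (H1fx, 0.90), against 8.86% and 10.8%. H3f3a and H3f3b, which both encode H3.3, lay between 220 and 336 RPKM and between 329 and 480 RPKM, with the highest values in AP3 EBs. H2afx had the same order as most members at D0, KD above WT above AP3, and its lowest value in the KD-labelled EBs. H2afz passed 1.5-fold between AP3 EBs and WT EBs (394 and 258 RPKM). Cenpa, the centromeric H3 variant, lay between 76.9 and 111 RPKM, and H1f0, the linker histone of resting cells, between 10.3 and 15.9 RPKM.

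Of the genes of histone mRNA processing and S phase, few passed 1.5-fold, and Slbp was 1 of those that did. Slbp had 63.1, 67.2 and 52.5 RPKM in WT, KD and AP3 at D0 and 38.7, 44.4 and 62.9 RPKM at D3, so it was lower by more than 1.5-fold from D0 to D3 in WT and in the KD-labelled line (log2 changes of -0.70 and -0.60) and higher in AP3 EBs than in WT EBs (0.70). Of 16 processing genes, 0 passed 1.5-fold in the KD-labelled ESC library and 1 in AP3 ESCs (Srrt, 52.9 and 31.2 RPKM). From D0 to D3, Srrt and Ncbp2 were higher in WT (log2 changes of 0.61 and 0.60). Over the same days Lsm11 was higher in the KD-labelled line (0.84) and Srrt in AP3 (1.53). Of 24 S phase genes, among them Pcna and the Mcm helicase subunits, 0 passed in either D0 comparison, and from D0 to D3 in WT 1 was lower (Rrm2, 164 and 102 RPKM). In AP3 EBs 2 of the 24 were higher than in WT EBs (Rrm2 and Dut, with log2 changes of 0.60 and 0.64), and 2 were higher than in AP3 ESCs (Tyms and Dut, 0.75 and 0.85). The part of these genes in the histone levels was not tested. None of 15 chaperone genes passed in either D0 comparison.

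Among 9 regulators of histone gene transcription, Npat, the coactivator of the clusters, lay between 7.96 and 10.6 RPKM. E2f3 was the one that passed 1.5-fold in the KD-labelled ESC library (8.01 and 12.1 RPKM), and it was lower in AP3 ESCs (5.16 RPKM). From D0 to D3, 3 of the 9 were lower in WT and 4 in the KD-labelled line, against 9.53% and 8.86% of all entries. They were Pou2f1, Ccne1 and Ccne2 in both and E2f3 in the KD-labelled line. In AP3 the count was 2 lower (Pou2f1 and Hinfp) and 1 higher (E2f3), against 11.5% and 10.8% of all entries. Ccne1 and Ccne2 were higher in AP3 EBs than in WT EBs (log2 changes of 0.84 and 0.80) and Pou2f1 lower (-0.67). The part of these regulators in the histone levels was not tested. Ccne1, the cyclin E gene that starts S phase, was lower in EBs than in ESCs in WT (56.5 and 32.4 RPKM) and in the KD-labelled line (69.8 and 43.9 RPKM) and differed by less than 1.5-fold in AP3 (59.3 and 57.8 RPKM). In bulk samples fewer cells in S phase and less histone RNA per cell cannot be told apart.

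**Figure D4:**
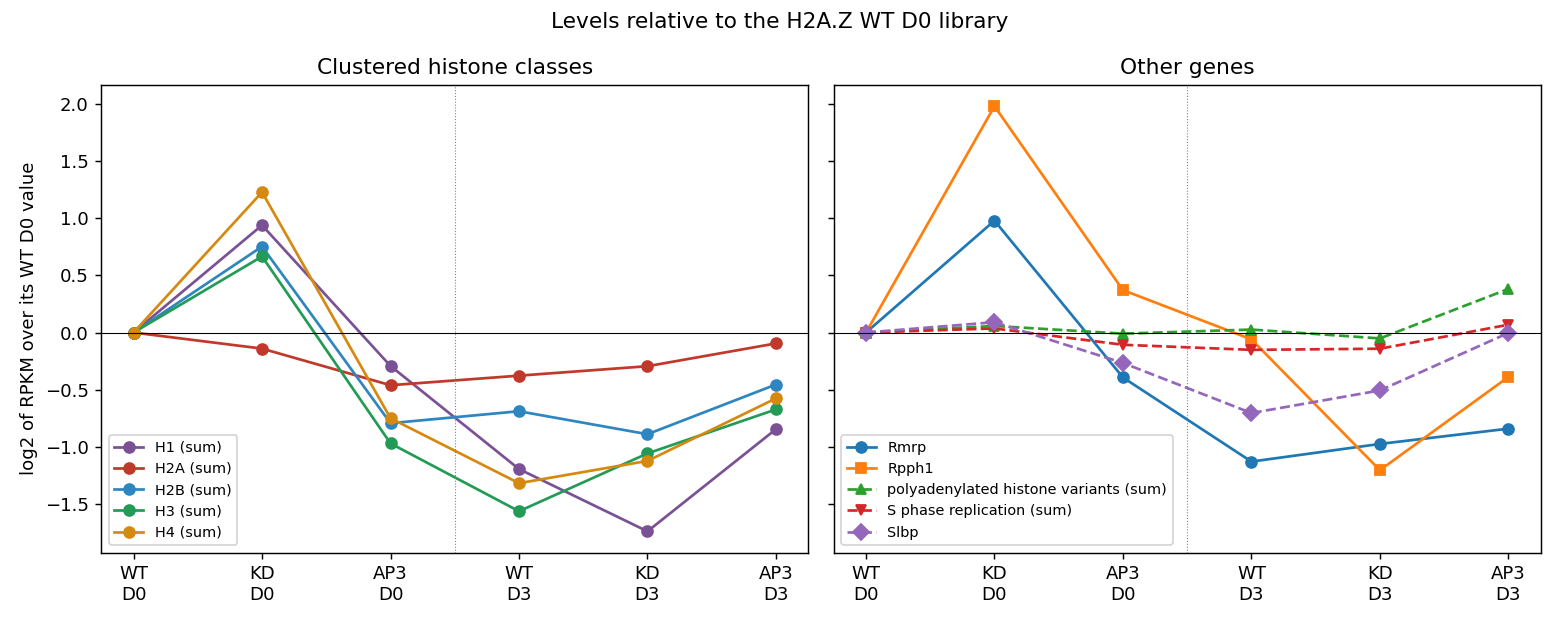
Log2 of the RPKM in each library over its value in the WT D0 library, for the summed classes (left) and for Rmrp, Rpph1, Slbp and the summed lists of polyadenylated variants and S phase genes (right). H1, H2B, H3 and H4 sums, Rmrp and Rpph1 peak in the D0 library labelled KD, where the sums of polyadenylated variants and S phase genes and Slbp are near their WT values.

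Markers of other cells also differed between the libraries. The summed RPKM of 8 fibroblast markers, which feeder cells would carry, was 36.4, 32.2 and 54.7 in WT, KD and AP3 at D0 and 15.6, 9.28 and 12.7 at D3, with 0 to 2 of them listed at 0 in a library, and Col1a1, 1 of them, had 9.76, 7.42 and 15.5 RPKM at D0. Thy1, which was higher in WT EBs than in WT ESCs (9.19 and 1.74 RPKM), made up most of the D3 sums of WT and KD, and without it the sums were 34.7, 29.7 and 53.0 at D0 and 6.38, 3.80 and 9.12 at D3, the last being AP3. Of 7 filtered markers of early differentiation, 7 were higher in WT EBs than in WT ESCs. In the KD-labelled ESC library 3 were higher than in WT ESCs and 0 lower (Fgf5, Foxa2 and Gata4, with log2 changes of 1.05, 1.07 and 0.61), and 4 were higher and 2 lower in AP3 ESCs than in WT ESCs, with Gata4 at 3.24 and 12.1 RPKM. Of the 8 ESC markers, 0 passed 1.5-fold in the KD-labelled ESC library, 3 were lower in AP3 ESCs (Klf2, Klf4 and Sox2; median of the 8 -0.15) and 3 were lower in WT EBs than in WT ESCs (Klf2, Klf4 and Tdgf1; median -0.51). The part of these cells in the histone levels was not tested.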

How the data were processed

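RNA-Seq was made from 6 libraries, 1 per condition, from oligo(dT)-selected RNA. The submitters' processing notes name TopHat 1.14 (the study's methods name another release), Bowtie 0.12.7 and Cufflinks 1.3.0 on mm9, with up to 2 mismatches and 20 locations for a read. The authors deposited RPKM values per gene, and their log2 ratios in the same table were not used. How Cufflinks divided reads among near-identical loci is not given in the sources used here. Starts in the table count from 0 and were raised by 1.

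Log2 changes used a pseudocount of 0.001 RPKM, entries with a mean of at least 1 RPKM and a threshold of 1.5-fold. Replicates were not present, so no test was made. Members and lists were chosen with earlier results of these data known. Genes named are the 3 highest of each class, the 3 largest increases and decreases per comparison among members of at least 5 RPKM (18 entries, all H2A, ranked with a pseudocount of 1), testis-specific members, H2afz and list genes; others (Hist3h2ba, Hist1h4a, Hist4h4, Hist2h2ab, Hist1h3a, Hist1h3d, Hist1h4h, Hist1h2bg, Hist1h3f, Hist1h1d, Hist2h4, Hist2h2be, Hist3h2bb-ps and those named for their sequence) were picked after their values were seen. Depth was estimated from the steps of low RPKM values and was checked on simulated data. Exact Clopper-Pearson intervals (95%) used the lowest estimate. Strand and stop codons came from GENCODE on NCBIM37. Alternatives were pseudocounts of 0.1 and 1, no filter or a mean of 5 RPKM, centring, summing shared symbols and 2-fold. Python 3.11.15, numpy, pandas, scipy and matplotlib were used.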

Additional observations from a re-analysis of the deposited data

How the results depend on the processing

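No paired analysis was possible because each condition had 1 library and the labels give no replicate numbers, so no comparison here could be blocked or made without a library. A fit of D3 against D0 that takes the 3 lines as replicates was not made, since the lines are the conditions compared. Of 49 alternative median log2 changes over the members, 32 stayed within 0.1 of the value given, 16 moved by more and kept their sign and 1 moved by more and turned its direction, and of 56 alternative counts of members past 1.5-fold, 39 stayed within 1.5 times and 17 moved.

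A minimum mean of 5 RPKM left the 18 H2A entries and no other member. The median in KD against WT at D3, between 0.11 and -0.00 in all alternatives, went from 0.07 to -0.00 there. The median in KD against WT at D0 turned from 0.72 to -0.14, and the medians became -0.44 in AP3 against WT at D0, 0.26 in AP3 against WT at D3, -0.20 in KD and -0.39 in WT from D0 to D3. Counts past 1.5-fold became 3 (AP3 against WT, D0) and 2 (KD, D3 against D0), and 0 in the other 5 comparisons. Leaving out the H2A entries, an alternative chosen after seeing the data, gave medians of -0.78 and 0.65 in AP3 against WT at D0 and D3, 0.99 in KD against WT at D0, and -1.89 and -1.26 from D0 to D3 in KD and WT.

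A pseudocount of 1 RPKM, near the level of most members that are not H2A, gave medians of -0.44 in AP3 against WT at D0, 0.45 in KD against WT at D0, and 0.20, -0.97 and -0.46 from D0 to D3 in AP3, KD and WT. The counts under it were 12 and 7 in AP3 against WT at D0 and D3, 2 in KD against WT at D3 and 2 in AP3 from D0 to D3. Summing entries of 1 symbol gave medians of -1.56 and -0.88 from D0 to D3 in KD and WT. With no filter 16 members passed from D0 to D3 in AP3. At 2-fold, 12 and 10 passed in AP3 against WT at D0 and D3, 17 and 5 in KD against WT at D0 and D3, and 2 in AP3 from D0 to D3. Depth limits entries near 0.1 RPKM, where 1 read on 400 bases is worth 0.0791 to 0.125 RPKM.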
